A study of Saccharomyces cerevisiae with 4 samples.

Results

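The 10 genes described here encode nuclear subunits of the mitochondrial ATP synthase of budding yeast (Saccharomyces cerevisiae), and were chosen by name from the 7126 features of the count table. They are ATP1, ATP2, ATP3, ATP4, ATP5, ATP7, ATP14, ATP15, ATP16 and ATP17, and each of the 10 passed the filter on low counts that left 6139 genes for testing. Polyadenylated RNA was sequenced from the strain MH1018, whose SUMO protease gene ULP1 has the allele ulp1-I615N, and from the strain MH1006, which has the normal gene. By their labels both strains are MATa and share the marker lys1::kanMX4, the deletions ade2-delta and ade3-delta, the alleles trp1-289 and ura3-52, and a leu2 gene with the mutations leu2-3 and leu2-112. Cultures were in mid-log growth in YPD, a rich glucose medium, at 30 °C. There were 2 libraries per group, and no label states whether these were separate cultures, which means that the spread behind each p-value could be technical. Each group is a single strain, so the ULP1 allele cannot be told apart from any other difference between the strains.

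The ATP synthase uses the proton gradient that the respiratory chain builds across the inner mitochondrial membrane to make ATP from ADP and phosphate. A catalytic head of alpha and beta subunits projects into the matrix, a central stalk turns within it as protons pass through the membrane sector, and a peripheral stalk holds the head still. A few subunits of the membrane sector are made inside mitochondria, whereas the head, both stalks and the remaining subunits come from nuclear genes. In yeast growing on glucose, genes of respiration are held down, and the activator complex of Hap2, Hap3, Hap4 and Hap5, which binds CCAAT boxes, raises many of them when glucose runs out.

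Library totals ran from 13244131 to 26723470 counted fragments. The ULP1 transcript, whose point mutation need not change its level, was counted 1116 and 2061 times in the mutant libraries and 1118 and 1213 times in the wild-type libraries (0.12 ± 0.08 on the log2 scale, edgeR adjusted p = 0.193), which does not check the labels. ADE2 and ADE3 had 1368 to 7104 counts in the mutant libraries and 2327 to 6621 counts in the wild-type libraries, which goes against the deletions in the labels of both strains, whereas LYS1 had 4 or 5 counts in each library. Genes of chromosome X were higher in the mutant along the chromosome, with a median log2 fold change of 0.73 over 373 tested genes, and ATP2 is the subunit gene that lies on it.

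The promoter windows of the catalytic pair are shown because ATP1 and ATP2 encode partners of the same head yet lie on chromosomes II and X, and that of ATP15 because it had the largest rise of the subunit genes off chromosome X. Each window runs from 250 bases before to 50 bases after the first base of the coding region, on the strand of the gene, all 3 on the plus strand, and was read from the RefSeq genome of the R64 assembly, the sequence of sacCer3. The windows are chrII:36803-37102 for ATP1, chrX:647357-647656 for ATP2 and chrXVI:29829-30128 for ATP15. Capitals mark CCAAT on either strand.
ATP1: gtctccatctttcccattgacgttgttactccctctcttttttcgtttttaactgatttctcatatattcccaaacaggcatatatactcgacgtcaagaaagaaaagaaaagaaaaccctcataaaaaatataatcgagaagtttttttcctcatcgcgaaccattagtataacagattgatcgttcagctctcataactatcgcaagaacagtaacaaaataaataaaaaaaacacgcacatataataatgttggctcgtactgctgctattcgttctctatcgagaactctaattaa
ATP2: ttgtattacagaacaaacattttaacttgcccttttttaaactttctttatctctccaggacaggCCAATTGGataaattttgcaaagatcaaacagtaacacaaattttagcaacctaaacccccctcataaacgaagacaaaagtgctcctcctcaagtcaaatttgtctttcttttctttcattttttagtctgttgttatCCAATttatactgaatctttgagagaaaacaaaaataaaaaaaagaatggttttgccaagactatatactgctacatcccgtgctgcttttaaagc
ATP15: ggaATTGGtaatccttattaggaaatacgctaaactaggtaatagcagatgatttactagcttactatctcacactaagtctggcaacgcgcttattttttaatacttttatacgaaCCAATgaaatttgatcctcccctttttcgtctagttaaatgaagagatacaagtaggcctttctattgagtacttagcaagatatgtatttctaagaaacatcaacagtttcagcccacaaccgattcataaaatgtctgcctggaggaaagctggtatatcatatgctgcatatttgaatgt
In the ATP2 window, 2 matches on opposite strands overlap, and another lies 46 to 42 bases before the coding region. The ATP1 window holds no CCAAT, which says only that these letters are not in this stretch.

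CCAAT occurred on either strand in the windows of 9 of the 10 subunit genes, ATP1 being the exception, and in 43.3% of the 5987 promoter windows of nuclear protein-coding genes of the same length. The longer form CCAATNA, where N is any base and every match also counts as a CCAAT match, was found in 7 of 10 subunit windows and in 15.97% of all windows. CCCCT, the stress response element bound by the activators Msn2 and Msn4, was found in the windows of ATP2, ATP15, ATP16 and ATP14, which is 4 of 10 against 21.6% of all windows. Among related genes the CCAAT windows numbered 7 of 9 for complex III, 8 of 9 for complex IV and 3 of 15 for the vacuolar ATPase, a proton pump of another membrane. In the 200 bases before the coding region alone, CCAAT was in 8 of 10 subunit windows and 28.9% of all windows, and in 4 of 9 for complex III, 4 of 9 for complex IV and 1 of 15 for the vacuolar ATPase. These are counts of letters, with no measure of binding.

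**Figure D1:**
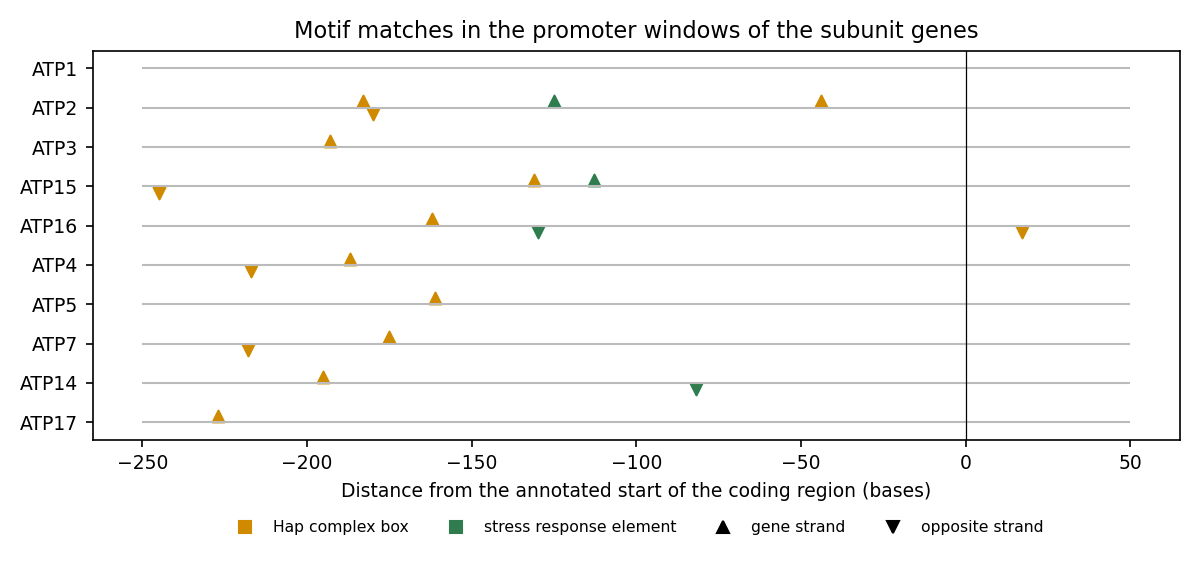
Matches to CCAAT (Hap complex box, orange) and CCCCT (stress response element, green) in the windows of the 10 subunit genes, by distance in bases from the annotated start of the coding region; triangles pointing up are on the gene's strand and those pointing down on the opposite strand. The 9 genes other than ATP1 each have an orange mark before the start, and green marks appear for ATP2, ATP15, ATP16 and ATP14.

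All 10 subunit genes were called higher in the ulp1-I615N strain, whereas 26.4% of all tested genes were higher, 24.3% lower and 50.8% called in either direction. A call is a p under 0.05 from the quasi-likelihood test of edgeR, adjusted by the method of Benjamini and Hochberg over all 6139 genes. For each of the 10, both mutant libraries lay above both wild-type libraries, which held in this direction for 38.1% of tested genes. The rises were small for 9 of them, from 1.15-fold to 1.40-fold with a median of 1.22-fold, and ATP2 stood at 1.91-fold. The median log2 fold change was 0.31 over the 10 genes and 0.29 over the 9 off chromosome X, against 0.01 over all tested genes. A rise of this size was common: 21.3% of the 5766 tested genes off chromosome X had a larger log2 fold change than the median of the 9. Without mutant replicate 2, ATP5 (adjusted p = 0.0514), ATP14 (adjusted p = 0.0905) and ATP17 (adjusted p = 0.354) were not called and 7 of 10 remained. These are bulk samples, in which more RNA per cell and more cells that make it cannot be told apart.

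ATP2 (YJR121W, chromosome X, 647607 to 649142 of sacCer3) encodes the beta subunit, which carries the catalytic sites. It had 22840 and 47347 counts in the mutant libraries and 13190 and 15736 counts in the wild-type libraries. After scaling this was 1670 ± 55.8 CPM (counts relative to the TMM-scaled library total) in the mutant and 872.5 ± 8.04 CPM in wild type (SD, n = 2 each). Both mutant libraries were nearly double the wild-type ones, a gap many times the spread within either group. The log2 fold change was 0.94 ± 0.08 (SE, edgeR adjusted p = 7.70e-08).

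ATP1 (YBL099W, chromosome II, 37053 to 38690) encodes the alpha subunit, which alternates with beta around the head. Its counts were 10954 and 21439 in the mutant and 9875 and 11388 in wild type, or 778.2 ± 5.64 CPM in the mutant and 642 ± 21.3 CPM in wild type (SD, n = 2 each). The mutant libraries were higher without overlap, by 0.28 ± 0.07 on the log2 scale (SE, edgeR adjusted p = 0.00476). The feature YBL100C overlaps 251 of the 1638 bases of ATP1, and fragments that touched both features were not counted, so the ATP1 level is understated.

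The central stalk genes rose by 1.22-fold to 1.40-fold. ATP3 (YBR039W, chromosome II, 315575 to 316510), the gamma subunit that forms the turning shaft, had 3179 and 6579 counts in the mutant and 2828 and 3322 in wild type, which gave 232 ± 7.48 CPM in the mutant and 186 ± 3.74 CPM in wild type (SD, n = 2 each). Its groups were well apart, at a log2 fold change of 0.32 ± 0.06 (SE, edgeR adjusted p = 0.000297). ATP16 (YDL004W, chromosome IV, 443029 to 443511), the delta subunit at the foot of the shaft, was at 183 ± 2.41 CPM in the mutant and 150.04 ± 7.85 CPM in wild type, a log2 fold change of 0.29 ± 0.06 (edgeR adjusted p = 0.00112). ATP15 (YPL271W, chromosome XVI, 30079 to 30267), the epsilon subunit beside delta, had 1130 and 2791 counts in the mutant and 974 and 1185 in wild type. Its mutant libraries differed from each other, at 80.7 and 100.8 CPM, while the wild-type libraries were at 64.8 and 65.3 CPM. The log2 fold change was 0.49 ± 0.09 (edgeR adjusted p = 0.000869), and it was 0.31 without mutant replicate 2 and 0.63 without mutant replicate 1.

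The 4 peripheral stalk genes had log2 fold changes of 0.28 to 0.35, with no test of the differences between them. ATP4 (YPL078C, chromosome XVI, 408010 to 408744), the b subunit that anchors the stalk in the membrane, had 4022 and 7755 counts in the mutant and 3602 and 4147 in wild type, or 284 ± 5.05 CPM in the mutant and 234 ± 8.05 CPM in wild type (SD, n = 2 each), a log2 fold change of 0.28 ± 0.06 (edgeR adjusted p = 0.00137). ATP5 (YDR298C, chromosome IV, 1058176 to 1058814), the subunit called OSCP that joins the stalk to the head, was at 158 and 174 CPM in the mutant and 136 and 138 CPM in wild type. ATP7 (YKL016C, chromosome XI, 407465 to 407989), subunit d, was at 172 and 182 CPM in the mutant and 149.9 and 130.4 CPM in wild type. ATP14 (YLR295C, chromosome XII, 721999 to 722373), subunit h, was at 83.2 and 100.1 CPM in the mutant and 72.9 and 72.2 CPM in wild type. In each of the 4 both mutant libraries lay above both wild-type libraries, as in 38.1% of all tested genes. The log2 fold changes of ATP5, ATP7 and ATP14 were 0.28, 0.34 and 0.35. Without mutant replicate 2, ATP14 was at 0.20 and ATP5 at 0.21, and neither was called. ATP14 shares 32 bases with the feature YLR294C.

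ATP17 (YDR377W, chromosome IV, 1228611 to 1228916), subunit f of the membrane sector, had the smallest rise. It was counted 1333 and 2925 times in the mutant and 1343 and 1571 times in wild type, or 95.2 and 105.6 CPM in the mutant and 89.4 and 86.5 CPM in wild type. The gap between the nearest libraries of the groups was 0.09 on the log2 scale, the narrowest of the 10. The log2 fold change was 0.20 ± 0.07 (SE, edgeR adjusted p = 0.0294), and the call ended with DESeq2 (adjusted p = 0.122), without mutant replicate 2 (0.11, adjusted p = 0.354) and without wild type replicate 2 (0.17, adjusted p = 0.0762).

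Short transcripts were higher in mutant replicate 2 than in mutant replicate 1, and so were the short subunit genes. Over 282 genes under 400 bases with a mean log2 CPM above 4 the median log2 ratio of mutant replicate 2 to mutant replicate 1 was 0.16, against -0.02 over 1981 genes of 1000 to 2000 bases, and the wild-type libraries differed by 0.02 and -0.02 in these classes. ATP15, ATP14 and ATP17, the 3 subunit genes in the short class, had log2 ratios of 0.32, 0.27 and 0.15 between the mutant libraries. The 5 subunit genes of 400 to 1000 bases ran from -0.04 (ATP4) to 0.14 (ATP5), with ATP7 at 0.08, ATP3 at 0.07 and ATP16 at 0.03, against a median of 0.02 over the 1429 genes of this class, and ATP1 and ATP2 had -0.01 and 0.07. Over the 282 short genes the median log2 fold change between the strains was -0.01. The part of transcript length in the rises of ATP15, ATP14 and ATP17 was not tested.

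**Figure D2:**
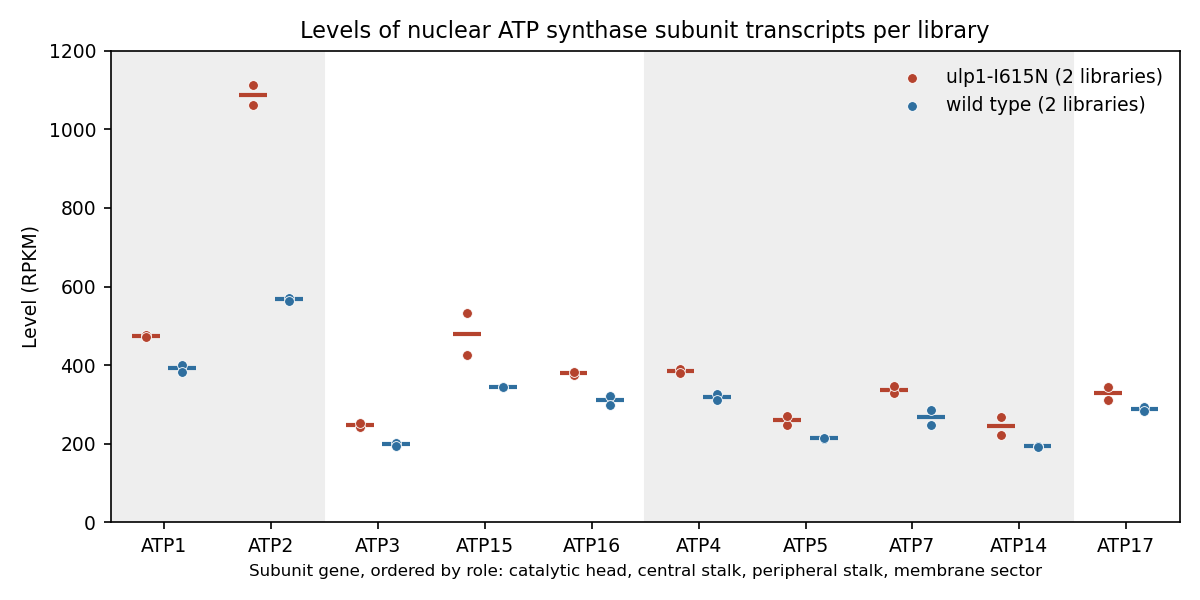
Level of each subunit transcript in RPKM (scaled CPM per kilobase of feature, linear axis from 0) in the mutant libraries (red) and the wild-type libraries (blue); points are libraries and bars the mean of 2, and shading separates the roles. The red points lie above the blue points for each gene, and ATP2 stands apart at 1088 RPKM in the mutant and 568 RPKM in wild type.

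Per length of the feature, as RPKM (scaled CPM per kilobase), ATP2 had the highest level of the 10 in both strains. It reached 1062 and 1113 in the mutant libraries and 572 and 564 in the wild-type libraries. The next levels in the mutant were those of ATP15 (480.1 ± 75.2 RPKM) and ATP1 (475 ± 3.44 RPKM), which did not differ beyond their spread (SD, n = 2 each). ATP4 (386 ± 6.88 RPKM) and ATP16 (379 ± 4.995 RPKM) followed, with overlapping libraries. ATP7 and ATP17 were at 337 ± 12.8 and 328 ± 24.1 RPKM, and the lowest were ATP5, ATP3 and ATP14 at 259 ± 17.4, 248 ± 7.99 and 244 ± 31.96 RPKM, the members of each of these sets being closer than their spread. In wild type the order was ATP2, ATP1, ATP15, ATP4, ATP16, ATP17, ATP7, ATP5, ATP3 and ATP14, between 568 and 193 RPKM. With the unshared length of ATP1, which gave 561 RPKM in the mutant and 463 RPKM in wild type, ATP1 ranked before ATP15 in both strains. With that of ATP14, which gave 267 RPKM in the mutant and 211 RPKM in wild type, ATP14 ranked 8 in the mutant and 9 in wild type instead of last.

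The balance between the subunit transcripts differed at ATP2. Of the summed RPKM of the 10 genes, ATP2 made up 26.0% and 25.5% in the mutant libraries and 18.1% and 18.6% in the wild-type libraries. The ratio of ATP2 to ATP1 per length was 2.22 and 2.36 in the mutant libraries and 1.42 and 1.47 in the wild-type libraries, and with the 251 shared bases of ATP1 left out of its length it was 1.94 in the mutant and 1.23 in wild type on average. On the log2 CPM scale ATP2 lay above the mean of the other 9 genes by 3.21 and 3.17 in the mutant and by 2.54 and 2.58 in wild type. The mutant value was therefore higher by 0.63, with each mutant library above each wild-type library. An exact two-sided permutation test over the libraries gave p = 0.333, the smallest that 2 against 2 libraries allow, so the design cannot reach 0.05. For both stalks the difference between the strains was smaller than the SD of the mutant libraries: the mean RPKM of the peripheral stalk genes was 0.646 ± 0.0338 of that of ATP1 in the mutant and 0.633 ± 0.00266 in wild type, and that of the central stalk genes 0.777 ± 0.0675 in the mutant and 0.725 ± 0.00822 in wild type (SD, n = 2 each).

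As a share of all counts the 10 genes came to 0.391% and 0.399% in the mutant libraries, against 0.256% and 0.239% in wild type. Their summed level was 3773 ± 106 CPM in the mutant and 2587 ± 64.1 CPM in wild type (SD, n = 2 each), a ratio of 1.46. Without ATP2 the sums were 2103 ± 50.6 CPM in the mutant and 1715 ± 56.1 CPM in wild type, a ratio of 1.23.

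**Figure D3:**
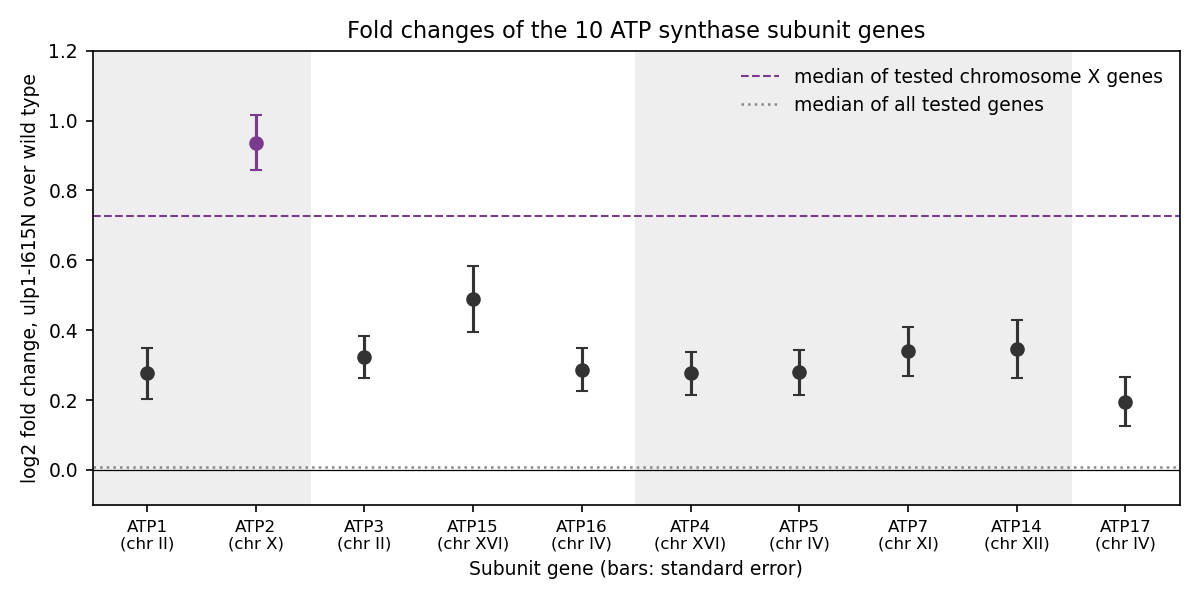
log2 fold change of each subunit gene (points, with standard error bars), with chromosomes under the names, the median of chromosome X genes (dashed) and of all tested genes (dotted). The 9 genes off chromosome X lie between 0.20 and 0.49, and ATP2 (purple) lies at 0.94, above the dashed line at 0.73.

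ATP2 was set against the rest of its chromosome. Its log2 fold change was 0.21 above the chromosome X median, and 111 of the 373 tested genes of chromosome X (29.8%) had a larger one. Off chromosome X, 267 of 5766 genes (4.63%) did. Of chromosome X genes 90.6% were called higher, against 22.3% of genes elsewhere. The 10 tested genes nearest to ATP2, 5 on each side, were all called higher, from 0.21 to 1.15 with a median of 0.74. They included the adjacent genes DMO1 (0.69 ± 0.26 SE, edgeR adjusted p = 0.0422), whose end lies inside the ATP2 promoter window printed above, and IBA57, of the assembly of mitochondrial iron-sulfur proteins (0.92 ± 0.08). Others were TDA4 (0.39), STE24 of a-factor maturation (0.99), ILM1 (0.49) and the histone demethylase gene JHD2 (1.15) on one side, and YJR124C (0.21), the endocytosis gene ENT3 (1.04) and VPS70 (0.79) on the other.

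The genes beside the other 9 subunit genes moved in both directions. Among their 18 nearest tested neighbours were 7 called higher, 5 called lower and 6 without a call. Their median was 0.03 on the log2 scale. For comparison, 22.3% of tested genes off chromosome X were called higher, and 24.3% of all tested genes were called lower. Whether the neighbours differ from these shares was not tested. For example, ATP5 was at 0.28 between SUR2 of sphingolipid synthesis (-0.56) and BFR2 of ribosome assembly (-0.59), and ATP16 at 0.29 beside the cohesin gene MCD1 (-0.26) and MED2 (-0.11, not called). ATP4 at 0.28 lay beside the ribosomal protein gene RPL21B (-0.46). On the side with a rise, the pheromone-regulated gene FIG1 next to ATP3 was at 2.09 and ARH1 next to ATP17 at 0.32. YBL100C and YLR294C, which overlap ATP1 and ATP14, were at 0.30 and 0.32, and without strand in the counting their reads cannot be told apart from those of the subunit genes.

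**Figure D4:**
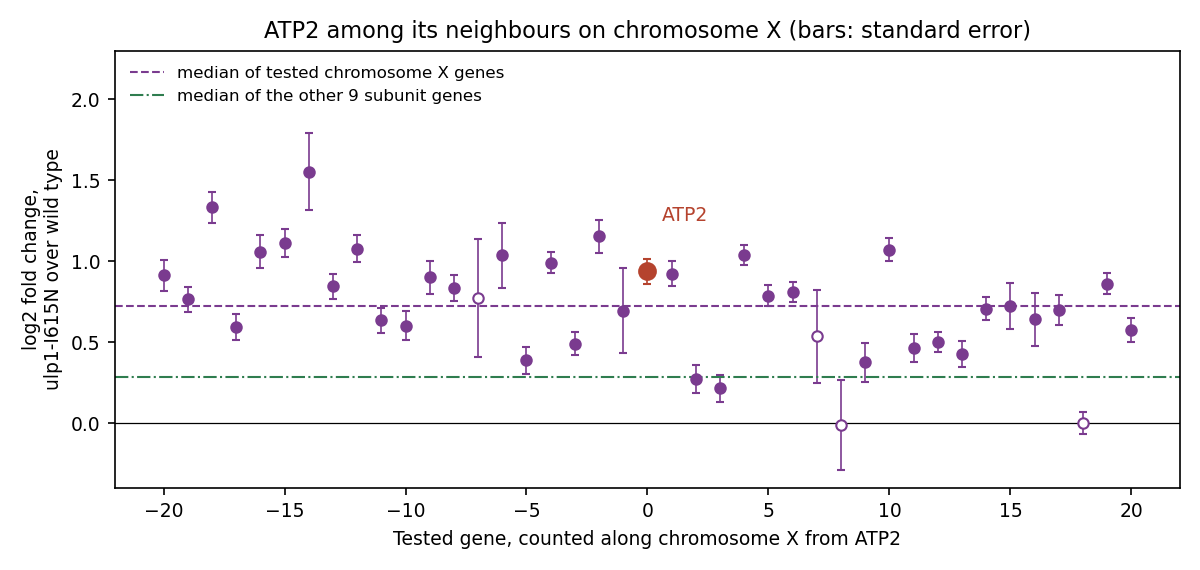
log2 fold change of ATP2 (red) and of the 20 tested genes on each side of it on chromosome X (purple, open where not called), with standard error bars. Of these 40 genes, 36 were called higher and 10 had a larger log2 fold change than ATP2; the lines mark the median of chromosome X genes (0.73) and of the other 9 subunit genes (0.29).

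The remaining genes of the enzyme and its partners came from lists chosen with earlier results of these data known. The other nuclear subunits, all of the membrane sector, gave 1 called rise among 4, near the 26.4% of all tested genes called higher. TIM11, subunit e, which joins enzymes into dimers, was at 120 ± 0.87 CPM in the mutant and 100.5 ± 4.26 CPM in wild type (SD, n = 2 each; log2 fold change 0.26, edgeR adjusted p = 0.00314). ATP20 (subunit g), ATP19 (subunit k) and ATP18 were at 0.16, 0.24 and 0.09 and were not called. All 4 genes are short, TIM11 included, and the values of the 3 without a call depended on single libraries. ATP18 was at 0.27 without mutant replicate 1, where it was called, and at -0.16 without mutant replicate 2. ATP19 was called without mutant replicate 1 (0.39), without wild type replicate 2 (0.31, adjusted p = 0.0418) and with library totals only (0.37, adjusted p = 0.0140), and was at 0.020 without mutant replicate 2 (adjusted p = 0.933). ATP20 was called without wild type replicate 1 (0.31), and was at 0.027 without mutant replicate 2; leaving out wild type replicate 2 gave 0.0021. The mitochondrially encoded subunit genes ATP6, ATP8 and OLI1 had 0 counts in each library, as had all 55 mitochondrial features, so these zeros cannot be read as expression.

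Transcripts of the proteins that inhibit the enzyme or hold it inhibited were all higher in the mutant, by 1.48-fold to 3.96-fold. INH1 encodes the protein that blocks ATP breakdown by the enzyme when the membrane loses its potential, and STF1 and STF2 encode proteins known to stabilise the inhibited form. All 3 transcripts were called higher, against 26.4% of all tested genes. STF1 had 756 and 1586 counts in the mutant and 225 and 240 in wild type, or 55.6 ± 2.33 CPM in the mutant and 14.1 ± 1.24 CPM in wild type (SD, n = 2 each). Its groups were far apart, with a log2 fold change of 1.99 ± 0.10 (SE, edgeR adjusted p = 3.79e-10). STF2, also known as a stress-induced hydrophilin, was at 35.6 ± 0.21 CPM in the mutant and 9.88 ± 0.51 CPM in wild type, 3.60-fold higher. INH1 was at 54.9 ± 3.49 CPM in the mutant and 37.2 ± 2.84 CPM in wild type, a log2 fold change of 0.57 (edgeR adjusted p = 6.87e-05). Per length, STF1 was at 213 RPKM in the mutant and 54.0 RPKM in wild type, and INH1 at 213 RPKM in the mutant and 144 RPKM in wild type.

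Among factors that assemble the enzyme or express its mitochondrial subunits, the share called higher was near that of all tested genes. The test called 3 of the 11 higher, against 26.4% of all tested genes, and left 8 uncalled. With library totals as the only scaling, 2217 of all 6139 tested genes were higher, and 6 of these 11 factors. Their median was 0.08 on the log2 scale, and leaving out mutant replicate 2 made 1 gene lower, as did leaving out wild type replicate 2. The called genes were ATP12, a chaperone of the alpha subunit that lies on chromosome X (0.71), NCA2 (0.32) and FMC1 (0.29). Without mutant replicate 1 the count was 1, since NCA2 (adjusted p = 0.0898) and FMC1 (adjusted p = 0.0883) were lost; FMC1 was also lost without mutant replicate 2 (adjusted p = 0.0548) and without wild type replicate 2 (adjusted p = 0.321).

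Transcripts of the carriers that feed the enzyme changed in both directions. The main ADP/ATP exchanger PET9 was at 1089 ± 1.12 CPM in the mutant and 916 ± 43.1 CPM in wild type (SD, n = 2 each), a log2 fold change of 0.25 (edgeR adjusted p = 0.0126), which was not called without mutant replicate 1 (adjusted p = 0.0559), mutant replicate 2 (adjusted p = 0.0605) or wild type replicate 2 (adjusted p = 0.0855). Its minor isoform AAC1 was at 0.09 and not called, and the isoform AAC3, known for expression without oxygen, fell to 19.6 ± 0.44 CPM in the mutant, against 34.9 ± 0.45 CPM in wild type. The phosphate carrier MIR1, on chromosome X, was at 0.63, and the second phosphate carrier PIC2 rose 2.89-fold. Of the activator complex, HAP4, the subunit whose level sets its activity, had 1366 and 2891 counts in the mutant and 970 and 867 in wild type, or 101 ± 4.85 CPM in the mutant and 56.2 ± 11.9 CPM in wild type, a log2 fold change of 0.85 (edgeR adjusted p = 0.000631). HAP2, HAP3 and HAP5 were at 0.16, 0.01 and 0.21 and were not called, although HAP5 was called without wild type replicate 1 (0.30, adjusted p = 0.0227). The main fit thus called 1 of these 4 genes higher, near the 26.4% of all tested genes. With library totals as the only scaling, HAP2 (0.29, adjusted p = 0.0336) and HAP5 (0.34, adjusted p = 0.0123) were called as well, making 3 of 4 higher. That scaling moved the median of all genes to 0.14 and called 2217 of all tested genes higher, against 1622 in the main fit.

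**Figure D5:**
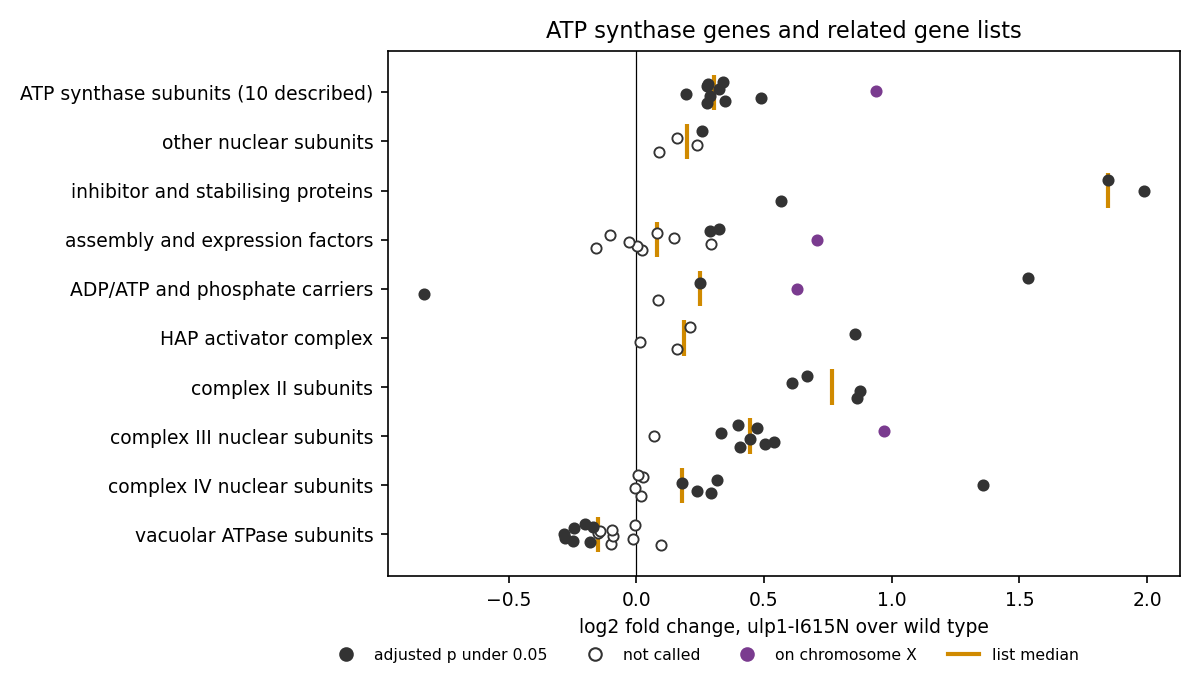
log2 fold change of each tested gene by list (filled where called, open where not, purple on chromosome X), with the list median as an orange bar. The medians are 0.31 for the 10 subunit genes, 1.85 for the inhibitor and stabilising proteins, 0.77, 0.45 and 0.18 for complexes II, III and IV, and -0.15 for the vacuolar ATPase.

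Beside other complexes of oxidative phosphorylation the 10 ATP synthase subunit genes lay in the middle, as medians with no test of the differences. Their median was 0.31, or 0.29 for those off chromosome X. The 4 other nuclear subunits, which are not among the 10, had a median of 0.20. Of all tested genes, 26.4% were called higher and 24.3% lower. Transcripts of all 4 subunits of complex II, succinate dehydrogenase, were higher (SDH1 0.86, SDH2 0.87, SDH3 0.61 and SDH4 0.67, median 0.77). Complex III, cytochrome bc1, had 8 called rises among 9 nuclear genes, with a median of 0.45 and the largest values at QCR8 on chromosome X (0.97), QCR10 (0.54) and CYT1 (0.50). Complex IV, cytochrome oxidase, had 5 called rises among 9 genes, with a median of 0.18. The largest were those of the hypoxic isoform gene COX5B (1.36), COX7 (0.32) and COX13 (0.29). With DESeq2, 3 of the complex IV genes were called. Fewer than in the main fit were also called without mutant replicate 2, where COX7 was at 0.14 and lost its call, and without wild type replicate 2. The vacuolar ATPase, a related rotary enzyme that pumps protons into the vacuole, gave the other sign. Among its 15 genes 7 were called lower and 8 were not called, at a median of -0.15, and VMA3, VMA16 and VMA11 were at -0.28, -0.28 and -0.25. Its count of lower genes was 3 without mutant replicate 1, 4 without mutant replicate 2, 4 with chromosome X genes left out of the scaling and 0 with library totals as the only scaling, where the median of all genes moved up to 0.14 and 1 gene of the vacuolar ATPase was higher.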

How the data were processed

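The authors deposited raw fragment counts per gene, made with featureCounts version 2.0.0 on read pairs, without options for strand, multi-mapping or overlapping features, per the file headers; the submitters' processing notes name HISAT2 2.1.0 and sacCer3. The kit was directional, per the labels' protocols. Fragments over more than 1 feature or of several places were thus left out. The version of the annotation was not stated. Groups come from the sample titles. Of 7126 features, 6048 matched a RefSeq R64 gene by locus tag, 6036 with the same start and end.

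Counts were tested with the edgeR 4.0.16 quasi-likelihood F test in R 4.3.3 (TMM, robust, minimum count 10, minimum total count 15), with group as the only term. P-values were Benjamini-Hochberg adjusted over all 6139 tested genes, with a threshold of 0.05. The test was also run on simulated data with far fewer changed genes than were called here. That run set no requirement for recovery of changes as small as those of the subunit genes off chromosome X. SEs derive from F. RPKM divides scaled CPM by the feature length in the table. Replicates differed beyond sampling noise (chi-square per degree of freedom 8.83 in the mutant, 9.72 in wild type). A count of 0 allows up to 0.227 CPM in the shallowest and 0.112 CPM in the deepest library (3 counts, counting error only). Members and lists were chosen with earlier results of these data known. Named are all members, all genes of lists of 5 or fewer, the 3 largest called changes and chromosome X genes of longer lists, and neighbours (1 gene near ATP2 is not reported here); of the 18 neighbours off chromosome X, those printed were chosen after their values were seen. Alternatives were other scalings, filters, DESeq2 1.42.0, limma-voom (limma 3.58.1), the replicate block, each library left out (a single remaining library is assumed to vary as the other strain does), the unshared length and a shorter promoter window.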

Additional observations from a re-analysis of the deposited data

How the results depend on the processing

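Over 13 alternative fits the 10 subunit genes stayed above 0 in all 130 values, from 0.11 to 1.07 on the log2 scale, and were called in 125. The other 5 were ATP17 with DESeq2 and 4 values with 1 library left out, given beside those genes. Leaving out 1 library gave 7 to 10 called subunit genes with a median of 0.26 to 0.35, an ATP2 excess over the mean of the other 9 of 0.60 to 0.65, and 1 ratio per library for ATP2 to ATP1, 2.22 to 2.36 in the mutant and 1.42 to 1.47 in wild type. It gave 1240 to 1512 lower genes in the whole table and 4 to 9 lower genes among the related lists, where 8 were lower in all libraries. With library totals only, which move the median of all genes to 0.14, the subunit median was 0.44, 866 genes were lower (against 1494) and 1 related gene was lower; with chromosome X genes left out of the scaling 5 were. Using the unshared length of ATP1 gave ATP2 to ATP1 ratios of 1.94 in the mutant and 1.23 in wild type. Among the named genes of the related lists, 3 uncalled ones changed sign with 1 library left out. ATP18 ran from -0.16 (without mutant replicate 2) to 0.27. AAC1 ran from -0.020 (without wild type replicate 2) to 0.17, and HAP3 from -0.030 (without wild type replicate 2) to 0.038. The genes of longer lists that are not named were not followed in this way. Libraries of the same replicate number share a letter, A or B, in their library names, and no label says what it means. The replicate block on these numbers (correlation of deviations 0.08) gave 1776 higher and 1657 lower genes. It had all 10 subunit genes among the higher, and called HAP5 (adjusted p = 0.0495). Depth does not limit the subunit genes, which had at least 974 counts in each library; 2 libraries per group do.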
